A study of Homo sapiens with 12 samples.

Results

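The 10 genes examined here classically mark the epithelial-mesenchymal transition (EMT), and they were followed by RNA sequencing of Ewing sarcoma cells in which the transcription factor AP-1 could be switched on. They are the EMT transcription factors SNAI1, SNAI2, TWIST1, TWIST2, ZEB1, ZEB2 and PRRX1 and the classical cadherins CDH1, CDH2 and CDH11, chosen by symbol, and they are 10 of the 58721 genes in the count table. EW8 and TC71 are established cell lines of Ewing sarcoma, a tumor of bone and soft tissue driven in most cases by the fusion protein EWS-FLI1. All cells, controls included, carried 2 lentiviral constructs and had been selected with geneticin and puromycin. The first held the Tet-On 3G activator behind an EF1a promoter. The other held a doxycycline-responsive TRE3G promoter driving c-Jun and c-Fos joined by a self-cleaving peptide. Within each line, DMSO vehicle was given to 3 samples and doxycycline (2000 ng/ml) to 3 others, all for 72 h, which makes 4 groups and 12 libraries. No doxycycline-treated cells without the c-Jun and c-Fos construct were used here, so the drug and the induced proteins cannot be told apart.

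In an EMT, cells loosen their contacts and gain motility. Snail (SNAI1), Slug (SNAI2), ZEB1 and ZEB2 bind E-box elements and repress epithelial genes, among them CDH1, which encodes E-cadherin. The basic helix-loop-helix factors TWIST1 and TWIST2 and the homeobox factor PRRX1 are further inducers of the mesenchymal state. A fall of E-cadherin with a gain of N-cadherin (CDH2) or of the mesenchymal cadherin-11 (CDH11) is known as the cadherin switch. In Ewing sarcoma, whose cell of origin is debated, EWS-FLI1 is known to repress many mesenchymal genes.

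The promoters bear on a single question of sequence, whether the members carry the elements that AP-1 or the EMT factors read. RefSeq windows on GRCh38.p14, from 250 bases before to 50 bases after a start site, were on hand for 5 of the 10 genes (TWIST2, ZEB1, ZEB2, PRRX1 and CDH2), with 12 start sites in all. Both strands were searched. The AP-1 site TGACTCA and the related CRE element TGACGTCA were found in none of the 12 windows, against 4.95% and 1.85% of the 35116 windows of all genes. At its principal start site ZEB1 held 3 copies of CAGGTG on either strand, the E-box that the Snail and ZEB proteins prefer, at positions -242, -85 and 33 counted from the start site. Of all windows, 20.6% held at least 1 copy and 0.635% held 3 or more. Another of the 7 ZEB1 start sites held 1 copy and a GGAAGGAA repeat of the kind bound by ETS factors such as FLI1, which 3.67% of all windows held. None of the other 4 genes held CAGGTG, and no window held the CATATG element preferred by Twist proteins (3.04% of all windows). The looser pattern CANNTG, which includes the 2 E-boxes above, was present in 68.7% of all windows. It was found once in ZEB2, as CACATG, once in CDH2, as CAGATG, and in none of the windows of PRRX1 and TWIST2. ZEB1 held other forms of it, such as CAGCTG, at start sites other than the principal one. The sequences below show the ZEB1 elements, the lone ZEB2 E-box and the stretch ahead of TWIST2, a gene that was read in only 1 of the lines, with every E-box in capitals. The first ZEB1 copy lies on the minus strand, so it reads there as CACCTG.
ZEB1, positions -250 to -92, plus strand, chr10:31318966-31319124: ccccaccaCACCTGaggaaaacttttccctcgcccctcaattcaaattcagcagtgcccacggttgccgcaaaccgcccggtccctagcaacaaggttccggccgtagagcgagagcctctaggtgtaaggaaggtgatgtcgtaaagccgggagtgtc
ZEB1, around the copy at -85, plus strand, chr10:31319119-31319148: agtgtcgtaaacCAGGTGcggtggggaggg
ZEB2, around the copy at -180, minus strand, chr2:144520282-144520311: cgatcacgttttCACATGatgctcacgctc
TWIST2, positions -250 to -54, plus strand, chr2:238847835-238848031: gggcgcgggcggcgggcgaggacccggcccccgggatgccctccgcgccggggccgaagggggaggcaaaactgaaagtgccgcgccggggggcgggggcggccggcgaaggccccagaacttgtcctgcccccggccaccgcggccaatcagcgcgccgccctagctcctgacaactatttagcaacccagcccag
A match is a run of letters and says nothing about binding in these cells.

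The libraries held between 42860665 and 60853649 counts, with each mate of a read pair counted. With doxycycline the log2 fold change of JUN was 4.46 in EW8 and 5.19 in TC71, and that of FOS was 4.87 and 7.08. The 10 Ewing sarcoma markers examined were all above the detection floor in every group, the floor being 6 counts, or 3 read pairs, in each library of a group. Replicates of a group differed by a chi-square per gene of 5.28 to 10.5, except that TC71 vehicle replicate 1 stood apart from its partners (59.2 and 57.2). Among the markers of other cell types, 4 of 6 endothelial genes were called higher with doxycycline in EW8 and 5 of 6 in TC71 (log2 fold change beyond 1, adjusted p under 0.05), against 11.4% and 12.3% of all tested genes. In TC71 TEK was among the 5 but at the floor with either treatment, at 0 and 2 counts in each library. The summed level of the 6 endothelial genes went from between 7.87 and 9.37 to between 48.0 and 53.4 CPM in EW8, CPM being counts scaled to a common library size, and from between 2.25 and 2.83 to between 10.6 and 12.7 in TC71. In TC71 vehicle PECAM1, VWF, CDH5 and TEK were at the floor. Fibroblast markers, which include the mesenchymal genes COL1A1 and PDGFRB, summed to 166-180 CPM and 141-150 CPM in EW8 without and with doxycycline and to 270-310 CPM and 284-297 CPM in TC71, with only COL1A2 at the floor in TC71 vehicle. Members moved in opposite directions under these sums. In EW8, 1 of 8 was called higher (PDGFRA) and 2 lower (LUM and PDGFRB), against 11.4% and 3.38% of all tested genes. In TC71, 2 were called higher (COL1A1 and COL1A2) and 3 lower (DCN, LUM and PDGFRB), against 12.3% and 3.67%. LUM in EW8 had only 8, 6 and 0 counts with doxycycline, and COL1A2 in TC71 was at least 2.29-fold higher. Leukocyte markers summed to 65.1-73.1 CPM and 75.4-80.5 CPM in EW8 and to at most 0.683 CPM in TC71, with CD3E at the floor throughout, and PTPRC alone made up 65.85 and 74.9 CPM of the EW8 sums as means. Keratinocyte markers summed to 167-173 CPM and 92.5-96.6 CPM in EW8 and to 11.3-12.6 CPM in TC71, and KRT5, DSG3 and KRT1 were at the floor throughout. A single gene, TP63, held most of the EW8 sum, averaging 147.7 ± 2.55 CPM in vehicle libraries and 71.3 ± 0.852 CPM in doxycycline libraries (log2 -1.05, adjusted p = 5.49e-05). The part of any of these marker genes in the results below was not tested.

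The first comparison asked which EMT factors changed when c-Jun and c-Fos were induced. SNAI2 rose in EW8, and PRRX1, ZEB1 and SNAI1 rose in TC71. For SNAI2, PRRX1 and ZEB1 the responses of the lines differed by an interaction test. By the same test the responses of FOS differed by 2.21, TC71 minus EW8 (adjusted p = 6.41e-12). Those of JUN differed by 0.73 (adjusted p = 0.00217), under the fold limit used here. The part of these 2 differences in the line differences of the EMT factors was not tested. Counts were compared with edgeR's quasi-likelihood test, and a gene was called, and is said to have risen or fallen, at an adjusted p under 0.05 with a log2 fold change beyond 1 in either direction. In EW8, 1 of the 8 genes tested was called higher and 0 lower, where 11.4% of all 21013 tested genes were called higher and 3.38% lower. In TC71, 3 of 8 were called higher and 0 lower, against 12.3% and 3.67% of all genes. CDH1 and CDH2 had too few counts to be tested. By adjusted p alone, without the fold limit, 3 genes were higher and 1 lower in EW8 (21.9% and 22% of all genes), and 5 were higher and 1 lower in TC71 (25.1% and 20.4%). Replicates were separate samples by their labels but were not described as separate cultures, so p-values measure the spread between these samples, and in RNA from whole cultures a change in a share of the cells and a change per cell cannot be told apart.

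**Figure D1:**
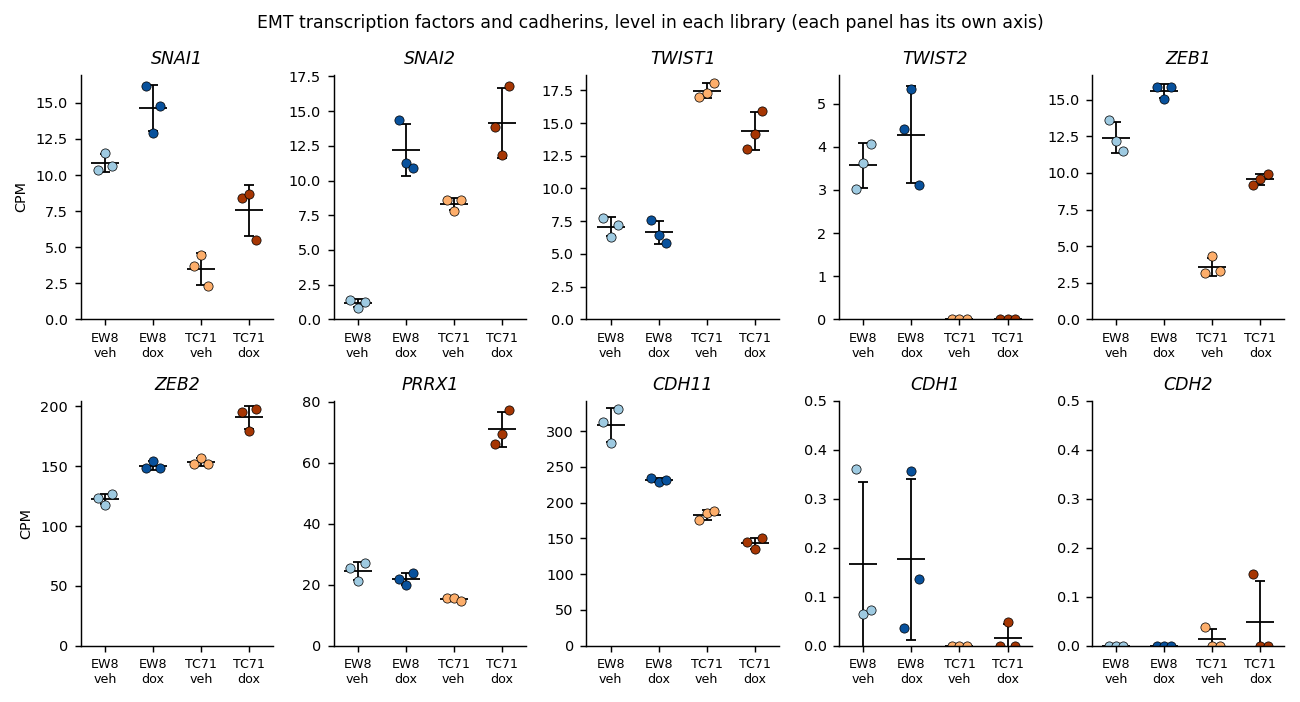
Level of each of the 10 genes in CPM (scaled counts, linear axis from 0, each panel with its own scale) in the 12 libraries; points are single libraries, wide ticks the mean of 3 and bars the SD. SNAI2 in EW8 and PRRX1 in TC71 show the widest separation of doxycycline from vehicle, TWIST2 was at 0 in all TC71 libraries, and CDH1 and CDH2 stayed below 0.5 CPM.

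SNAI2 (chromosome 8, 48917604 to 48921740, minus strand, hg38 as are all gene coordinates here) encodes Slug, the Snail family member of the neural crest and of migrating mesenchyme. In EW8 it stood at 1.40, 0.828 and 1.22 CPM in the 3 vehicle libraries and at 14.4, 11.3 and 10.9 CPM with doxycycline. In TC71 it stood at 8.59, 7.79 and 8.58 CPM with vehicle and at 13.9, 11.8 and 16.8 CPM with doxycycline. The groups of each line did not overlap, and the EW8 vehicle libraries were the low ones. The log2 fold change was 3.40 in EW8 (SE 0.20, 95% interval 2.99 to 3.82, adjusted p = 8.09e-11). In TC71 it was 0.77 (SE 0.16, 0.42 to 1.12, adjusted p = 0.000814), under the fold limit. The difference of these responses, TC71 minus EW8, was -2.64 (SE 0.26, -3.17 to -2.10, adjusted p = 5.81e-07 for the interaction). With vehicle SNAI2 was higher in TC71 than in EW8 by 2.85 on the log2 scale (SE 0.20, adjusted p = 4.42e-10). With doxycycline the difference was 0.22 (SE 0.16, -0.13 to 0.56, adjusted p = 0.265), so the 2 induced lines were not told apart for this gene. The EW8 vehicle libraries enter 3 of these contrasts.

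PRRX1 (chromosome 1, 170662728 to 170739419, plus strand) encodes a paired-related homeobox protein of limb and craniofacial mesenchyme. Its levels in TC71 were 15.6, 15.5 and 14.6 CPM with vehicle and 66.0, 69.5 and 77.1 CPM with doxycycline. In EW8 they were 25.4, 21.3 and 27.0 CPM with vehicle and 22.0, 19.9 and 23.8 CPM with doxycycline. The TC71 groups lay far apart and the EW8 groups overlapped. PRRX1 rose in TC71 by 2.22 on the log2 scale (SE 0.10, 2.01 to 2.43, adjusted p = 1.91e-12). In EW8 the log2 fold change was -0.17 (SE 0.10, -0.37 to 0.04, adjusted p = 0.183). The responses differed by 2.39 (SE 0.14, 2.09 to 2.68, adjusted p = 8.51e-10). The order of the lines changed with it. With vehicle, TC71 was the lower by a log2 difference of -0.69 (SE 0.10, adjusted p = 7.05e-06), which is under the fold limit, and with doxycycline it was the higher by 1.70 (SE 0.10, adjusted p = 3.91e-11).

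ZEB1 and ZEB2 encode zinc finger homeobox repressors of similar structure. ZEB1 (chromosome 10, 31318495 to 31529814, plus strand) stood at 13.6, 12.2 and 11.5 CPM in EW8 vehicle and at 15.9, 15.04 and 15.9 CPM with doxycycline. In TC71 it was at 3.17, 4.32 and 3.30 CPM with vehicle and at 9.21, 9.56 and 9.92 CPM with doxycycline. No groups overlapped, and all TC71 libraries lay below all EW8 libraries. ZEB1 rose in TC71 by 1.41 (SE 0.14, 1.12 to 1.69, adjusted p = 9.01e-08), while in EW8 the log2 fold change was 0.33 (SE 0.13, 0.06 to 0.60, adjusted p = 0.043). The responses differed by 1.08 (SE 0.19, 0.69 to 1.47, adjusted p = 0.000363). That estimate lies near the fold limit, and without TC71 vehicle replicate 1 it was 0.87 (SE 0.18, adjusted p = 0.000839). It also fell short of the limit, at 0.93 to 0.99, without TC71 vehicle replicate 3 or any of the 3 EW8 doxycycline libraries. ZEB1 was lower in TC71 than in EW8 with vehicle (log2 -1.78, SE 0.14, adjusted p = 1.73e-09). With doxycycline the log2 difference was -0.71 (SE 0.13, adjusted p = 0.000103). The antisense transcript ZEB1-AS1 shares 366 exon bases with ZEB1 (4.23% of its length) and had 14 to 62 counts a library.

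ZEB2 (chromosome 2, 144364364 to 144524583, minus strand) was the most abundant EMT factor by CPM, though not per kilobase of annotated exon. Its libraries held 124, 118 and 127 CPM in EW8 vehicle and 148, 155 and 148 CPM with doxycycline. In TC71 they held 152, 157 and 152 CPM with vehicle and 195, 180 and 198 CPM with doxycycline. Within each line the doxycycline libraries were all above the vehicle libraries, by a small margin. The log2 fold change was 0.29 in EW8 (SE 0.05, 0.18 to 0.41, adjusted p = 0.000195) and 0.31 in TC71 (SE 0.05, 0.20 to 0.43, adjusted p = 8.62e-05). The difference of the responses was 0.02 (SE 0.08, -0.14 to 0.18, adjusted p = 0.919).

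SNAI1 (chromosome 20, 49982999 to 49988886, plus strand) encodes Snail, a short-lived repressor and the classic silencer of CDH1. It stood at 10.3, 11.5 and 10.6 CPM in EW8 vehicle and at 16.2, 12.9 and 14.8 CPM with doxycycline. In TC71 the values were 3.70, 4.45 and 2.29 CPM with vehicle and 8.44, 8.70 and 5.51 CPM with doxycycline. Doxycycline libraries were above vehicle libraries in both lines, and TC71 replicate 3 was the lowest of its group with either treatment. SNAI1 rose in TC71 by 1.11 (SE 0.21, 0.67 to 1.55, adjusted p = 0.00023). It came to 0.84 (SE 0.19, adjusted p = 0.00143) without TC71 vehicle replicate 3, and to 1.00 (SE 0.23, adjusted p = 0.00206) without TC71 doxycycline replicate 2, which ends the call in both cases. In EW8 the log2 fold change was 0.44 (SE 0.19, 0.03 to 0.85, adjusted p = 0.0798). The responses were not shown to differ (0.67, SE 0.28, 0.07 to 1.27, adjusted p = 0.113). SNAI1 was lower in TC71 than in EW8 with vehicle (log2 -1.63, SE 0.21, adjusted p = 1.58e-06), and with doxycycline the log2 difference was -0.96 (SE 0.20, adjusted p = 0.000375). The latter lay between -1.07 and -1.02, and so was called, without EW8 vehicle replicate 3, EW8 doxycycline replicates 2 or 3, TC71 vehicle replicate 3, or TC71 doxycycline replicates 1 or 2.

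The Twist pair separated the lines more than the treatments. TWIST1 (chromosome 7, 19020991 to 19117672, minus strand) stood at 7.74, 6.32 and 7.22 CPM in EW8 vehicle and at 7.63, 6.48 and 5.85 CPM with doxycycline. In TC71 it stood at 16.99, 17.3 and 18.1 CPM with vehicle and at 13.02, 14.2 and 15.9 CPM with doxycycline. All TC71 libraries were above all EW8 libraries. The TC71 doxycycline libraries lay below the vehicle libraries, with a log2 fold change of -0.28 (SE 0.13, -0.54 to -0.02, adjusted p = 0.0782), and EW8 gave -0.09 (SE 0.13, -0.37 to 0.19, adjusted p = 0.631). The responses were not shown to differ (-0.19, SE 0.18, -0.57 to 0.19, adjusted p = 0.543). TC71 was higher than EW8 by 1.30 on the log2 scale with vehicle (SE 0.13, adjusted p = 6.67e-08) and by 1.11 with doxycycline (SE 0.13, adjusted p = 5.79e-07). Without EW8 doxycycline replicate 3 the latter was 0.96 and no longer called.

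TWIST2 (chromosome 2, 238848032 to 238910543, plus strand), the paralog also known as Dermo1, had 0 counts in each of the 6 TC71 libraries. In EW8 it was read at 3.02, 3.62 and 4.06 CPM with vehicle and at 4.40, 5.34 and 3.11 CPM with doxycycline, and the groups overlapped. Its EW8 log2 fold change was 0.26 (SE 0.27, -0.33 to 0.86, adjusted p = 0.487). Set against the floor, TWIST2 was at least 32.7-fold lower in TC71 than in EW8 with vehicle and at least 30.2-fold lower with doxycycline. No fold is given for TC71, where both groups were at 0.

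**Figure D2:**
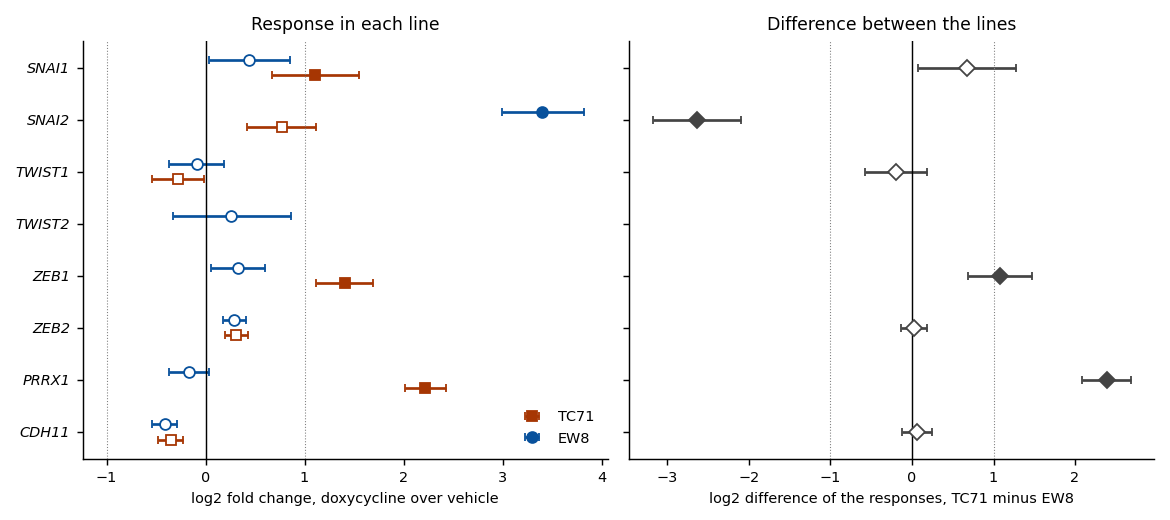
Left, log2 fold change of doxycycline over vehicle for the tested genes in EW8 (circles) and TC71 (squares); right, the difference of the responses, TC71 minus EW8 (diamonds). Bars are 95% intervals, filled symbols were called, dotted lines mark the fold limit, and TWIST2 has no TC71 value. SNAI2 lies at 3.40 in EW8 and 0.77 in TC71, PRRX1 at -0.17 and 2.22, and ZEB2 and CDH11 at nearly the same place in both lines.

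Between the lines themselves, 2 of the 8 genes were called higher in TC71 with vehicle (SNAI2 and TWIST1) and 3 lower (SNAI1, ZEB1 and TWIST2), where 11.6% and 18.9% of all tested genes were called. With doxycycline 2 were called higher (TWIST1 and PRRX1) and 1 lower (TWIST2), against 12.6% and 18.4%. For the difference of the responses, 2 were called higher (PRRX1 and ZEB1) and 1 lower (SNAI2), against 4.18% and 2.87%. These contrasts share libraries with the responses above and are not independent of them. Groups that did not overlap were common among all genes. In EW8, 4 of the 8 genes had all doxycycline libraries above all vehicle libraries (SNAI1, SNAI2, ZEB1 and ZEB2) and 1 below (CDH11), against 26.9% and 29.1% of all genes tested. In TC71, 5 were above (the same 4 genes and PRRX1) and 2 below (TWIST1 and CDH11), against 27.6% and 23.1%.

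Levels of different genes were compared per kilobase of exon. The length was that of all annotated exon bases of a gene, 25058 for ZEB2 beside 2033 for TWIST1 and 1686 for SNAI1. It can exceed the length of the transcripts made in these cells, so the order of the genes and their shares depend on it. In EW8 vehicle SNAI1 led the EMT factors at 6.42 ± 0.364 CPM per kb (SD, n = 3), followed by ZEB2 at 4.90 ± 0.174, TWIST1 at 3.49 ± 0.353 and PRRX1 at 2.98 ± 0.355. The ranges of TWIST1 and PRRX1 overlapped, and TWIST2 (1.90 ± 0.277), ZEB1 (1.44 ± 0.124) and SNAI2 (0.339 ± 0.0860) followed in that order with no overlap between neighbors. With doxycycline SNAI1 (8.68 ± 0.963) and ZEB2 (6.0 ± 0.148) still led in EW8, SNAI2 followed these at 3.59 ± 0.555, and the ranges of SNAI2, TWIST1, PRRX1, TWIST2 and ZEB1 overlapped from neighbor to neighbor. In TC71 vehicle TWIST1 led at 8.59 ± 0.276, ahead of ZEB2 at 6.13 ± 0.121, and SNAI2, SNAI1 and PRRX1 overlapped between 2.45 and 1.85 in their means. In TC71 with doxycycline PRRX1 led at 8.59 ± 0.692, ahead of ZEB2 at 7.61 ± 0.388 and TWIST1 at 7.07 ± 0.720, which overlapped each other. ZEB1 was the lowest detected factor in TC71, at 0.416 ± 0.0726 with vehicle and 1.11 ± 0.0409 with doxycycline.

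As a share of the summed level of the 7 factors, SNAI2 made up 1.57% ± 0.37 in EW8 vehicle and 12.7% ± 1.1 with doxycycline, next to 11.4% ± 0.90 and 12.6% ± 1.8 in TC71. PRRX1 made up 8.59% ± 0.23 in TC71 vehicle and 26% ± 1.2 with doxycycline, and 13.9% ± 1.3 and 9.41% ± 1.1 in EW8. TWIST1 went from 40.0% ± 2.1 to 21.4% ± 1.5 in TC71 as the sum of the 7 went from 21.5 ± 0.556 to 33.0 ± 1.22 CPM per kb. In EW8 that sum was 21.5 ± 0.614 with vehicle and 28.3 ± 1.78 with doxycycline. A share can shift with the other factors of the sum while the gene itself is level.

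The cadherins gave a different picture. CDH11 (chromosome 16, 64943753 to 65126112, minus strand), the cadherin of osteoblasts and loose mesenchyme, was the most abundant of the 10 genes per kilobase of annotated exon in all groups. It stood at 312, 283 and 330 CPM in EW8 vehicle and at 235, 229 and 231 CPM with doxycycline. In TC71 it stood at 175, 186 and 188 CPM with vehicle and at 145, 135 and 150 CPM with doxycycline. In both lines all doxycycline libraries were below all vehicle libraries. The log2 fold change was -0.41 in EW8 (SE 0.06, -0.54 to -0.29, adjusted p = 1.85e-05) and -0.35 in TC71 (SE 0.06, -0.48 to -0.23, adjusted p = 9.53e-05), both under the fold limit. The difference of the responses was 0.06 (SE 0.09, -0.12 to 0.24, adjusted p = 0.713). TC71 had less CDH11 than EW8 with vehicle (log2 -0.75, SE 0.06, adjusted p = 4.10e-09) and with doxycycline (-0.69, SE 0.06, adjusted p = 1.37e-08), again under the limit.

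Both partners of the classical switch from E-cadherin to N-cadherin were at or close to the floor. CDH1 (chromosome 16, 68737225 to 68835548, plus strand) had 16, 3 and 4 counts in EW8 vehicle, 2, 18 and 6 with doxycycline, 0 in every TC71 vehicle library, and 0, 2 and 0 in TC71 with doxycycline. CDH2 (chromosome 18, 27950966 to 28177446, minus strand) had 0 counts in all 6 EW8 libraries, 2, 0 and 0 in TC71 vehicle and 6, 0 and 0 with doxycycline. CDH1 passed the filter on low counts when some single libraries were left out. With vehicle it was called lower in TC71 than in EW8 in each of those fits. The same call was made with DESeq2 and with no filter on low counts. With doxycycline CDH1 was called lower in TC71 in only some of the fits without a single library. At this depth neither gene could be compared between treatments, and for CDH2 every group was at the floor.

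Among the 18 classical cadherins listed, CDH11 held most of the summed level per kilobase in EW8, at 62.7% ± 2.0 with vehicle and 60.7% ± 0.32 with doxycycline. In TC71 it held 36.6% ± 2.1 and 42.6% ± 1.1. The sum itself was 36.7 ± 1.76 and 28.5 ± 0.427 CPM per kb in EW8 and 37.4 ± 0.913 and 25.1 ± 0.791 in TC71. Of the 15 cadherins outside the 10 genes, 13 were tested. In EW8, 2 were called higher and 3 lower (11.4% and 3.38% of all genes), with a median log2 fold change of 0.03 beside -0.03 for all genes. In TC71, 2 were called higher and 2 lower (12.3% and 3.67% of all genes), with a median of -0.32 beside 0.

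CDH6, known as the cadherin of fetal kidney, rose in both lines. It stood at 4.33, 4.64 and 4.08 CPM in EW8 vehicle and at 43.6, 36.9 and 38.6 CPM with doxycycline, a rise of 3.19 on the log2 scale (SE 0.14, adjusted p = 2.31e-12). In TC71 it had 0, 2 and 0 counts with vehicle and 344, 291 and 385 with doxycycline, at least 73.4-fold higher. Its share of the classical cadherins went from 0.960% ± 0.11 to 11.2% ± 0.83 in EW8 and reached 2.57% ± 0.23 in TC71. CDH3, which encodes P-cadherin, rose in EW8 and fell in TC71. It went from 1.53, 1.79 and 1.08 CPM to 3.08, 4.19 and 3.79 CPM in EW8 (log2 1.33, SE 0.26, adjusted p = 0.000376), and from 3.88, 4.30 and 2.95 CPM to 1.75, 1.05 and 1.30 CPM in TC71 (log2 -1.44, SE 0.26, adjusted p = 0.000175). The responses of CDH3 differed by -2.78 (adjusted p = 2.52e-05).

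CDH8, CDH10 and CDH12, cadherins known from the nervous system, were the 3 called lower in EW8. In EW8, CDH8 fell by 1.49 in log2 units (57.9 ± 1.92 to 20.6 ± 0.999 CPM, adjusted p = 1.82e-11) and had a log2 fold change of -0.32 in TC71 (62.9 ± 5.41 and 50.3 ± 2.81 CPM, adjusted p = 0.00161), a difference of 1.17 (adjusted p = 3.22e-07). CDH12 fell by 1.33 in EW8 (adjusted p = 7.93e-09) and had -0.61 in TC71 (adjusted p = 5.88e-05). CDH10 fell by 1.25 in EW8 (6.60 ± 0.984 to 2.78 ± 0.437 CPM, adjusted p = 2.90e-05) and by 1.96 in TC71 (16.1 ± 2.39 to 4.13 ± 0.974 CPM, adjusted p = 7.00e-08). CDH5, the cadherin of endothelium and also one of the endothelial markers above, had 2, 0 and 2 counts in TC71 vehicle and 4, 10 and 8 with doxycycline, which was called (adjusted p = 0.0348) and amounts to at least 1.58-fold.

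**Figure D3:**
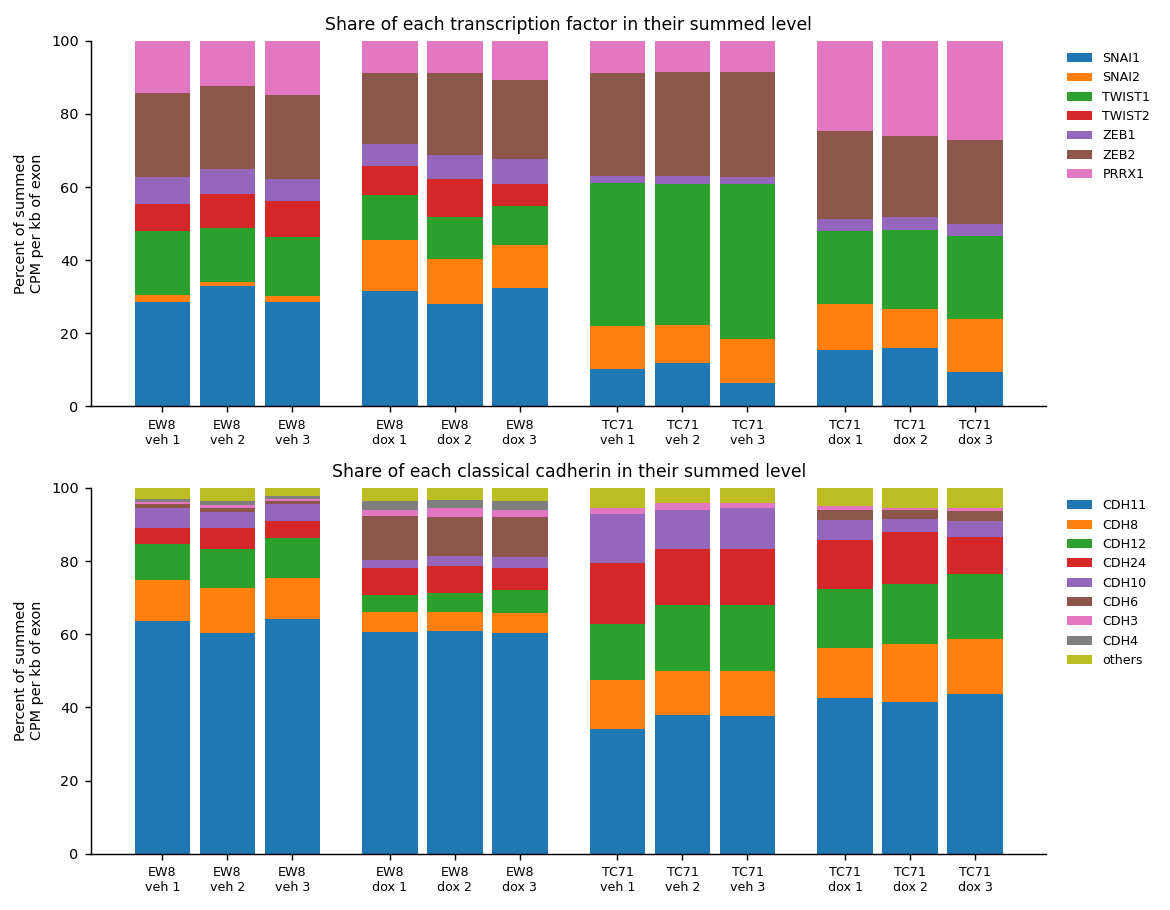
Stacked bars of the percent that each gene holds in the summed CPM per kilobase of exon, by library, for the 7 EMT transcription factors (top) and the 18 classical cadherins (bottom, 10 of them pooled as others). The pooled genes include CDH20, at 3.35% and 3.78% in TC71 with vehicle and doxycycline, above CDH6 there (0.00238% and 2.57%). SNAI2 widens in the EW8 doxycycline libraries and PRRX1 in the TC71 doxycycline libraries, while CDH11 holds between 60.3% and 64.1% of the cadherins in all EW8 libraries and CDH6 widens with doxycycline in EW8.

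Proteins that work with the EMT factors were looked at next. Of 15 further EMT transcription factors, 13 were tested. In EW8, 4 were called higher and 0 lower, against 11.4% and 3.38% of all genes (median 0.31, or 0 when genes at the floor take their bound). These were FOXC1, SNAI3, SCX and MSX1. In TC71, 5 were called higher and 0 lower, against 12.3% and 3.67% of all genes (median 0.58): the same 4 genes and GSC. FOXC1, a forkhead factor, went from 0.992, 1.74 and 0.754 CPM to 6.23, 6.40 and 5.39 CPM in EW8 (log2 2.38, SE 0.25, adjusted p = 3.65e-07) and from 3.36, 5.48 and 3.42 CPM to 15.6, 17.7 and 16.9 CPM in TC71 (log2 2.03, SE 0.22, adjusted p = 5.06e-07). MSX1, a homeobox factor, rose by 1.67 in EW8 (adjusted p = 7.19e-11) and 1.86 in TC71 (adjusted p = 1.16e-11). SNAI3, the third Snail gene, rose by 2.08 in EW8 (0.429 ± 0.172 to 1.81 ± 0.191 CPM, adjusted p = 0.00243) and was at least 4.99-fold higher in TC71. SCX was at least 1.74-fold higher in TC71, with 2 counts in each vehicle library and 10, 8 and 6 with doxycycline. The corepressors through which Snail and ZEB proteins act, such as CtBP, LSD1 and Polycomb subunits, held 13 genes, all tested. None was called in either line, although 2 were higher and 8 lower by adjusted p alone in both EW8 and TC71 (medians -0.26 and -0.17), and by unadjusted p under 0.05 the counts were 2 and 8 in EW8 and 2 and 9 in TC71. By adjusted p alone, 21.9% of all genes were higher and 22% lower in EW8, and 25.1% and 20.4% in TC71. DESeq2 also called 0.

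The upstream signals known to induce these factors held 18 genes, of which 17 were tested. In EW8, 7 were called higher and 0 lower (median 0.80), against 11.4% and 3.38% of all genes, and in TC71, 6 were called higher and 0 lower (median 0.66), against 12.3% and 3.67%. By adjusted p alone 15 were higher and 2 lower in EW8, against 21.9% and 22% of all genes. In TC71 10 were higher and 4 lower by that measure, against 25.1% and 20.4%. By unadjusted p under 0.05 the counts were 15 and 2 in EW8 and 11 and 4 in TC71. In TC71 DESeq2 called 1 lower. MET, the receptor of hepatocyte growth factor, rose by 4.97 in EW8 (8.68 to 270 CPM as means) and 4.52 in TC71 (11.5 to 264 CPM). AXL, a receptor tyrosine kinase, rose by 2.98 in EW8 and by 6.22 in TC71. TGFBR2, a receptor of TGF-beta chosen after its values were seen, rose by 2.52 in EW8 (14.9 ± 1.37 to 85.7 ± 4.16 CPM, adjusted p = 3.05e-13) and by 3.40 in TC71 (18.9 ± 3.10 to 200.6 ± 6.32 CPM, adjusted p = 3.99e-15). EGFR had 0 counts in TC71 vehicle and was at least 3.45-fold higher with doxycycline.

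Of 13 catenins and cadherin adaptors, which tie cadherins to actin and to each other, 11 were tested. None was called in EW8 (median 0.36), where 11.4% of all genes were called higher and 3.38% lower. By adjusted p alone 5 were higher and 2 lower in EW8, against 21.9% and 22% of all genes. By unadjusted p under 0.05 the counts were 6 and 2. DESeq2 also called 0 there. In TC71, 2 were called higher and 0 lower (median 0.55), against 12.3% and 3.67% of all genes. PLEKHA7, an adaptor of adherens junctions, rose by 2.18 in TC71 (2.41 ± 0.459 to 10.9 ± 1.03 CPM, adjusted p = 4.47e-09), and CTNNAL1, which encodes alpha-catulin, by 1.14 (adjusted p = 6.36e-11). CTNNA1, the alpha-catenin, lay at the fold limit in both lines, with a log2 fold change of 0.99 (SE 0.05) in each, and it is named after its values were seen.

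Last came genes that EMT factors are known to repress, and genes of the mesenchymal state. Of 30 epithelial genes, 22 were tested. In EW8, 8 were called higher and 0 lower (median 0.77), against 11.4% and 3.38% of all genes. In TC71, 8 were called higher and 0 lower (median 1.09, or 0.62 when floor genes take their bound), against 12.3% and 3.67%. CLDN4, a claudin of tight junctions, was at 1.17, 0.785 and 0.683 CPM in EW8 vehicle and at 52.4, 46.3 and 40.5 CPM with doxycycline, a rise of 5.74 (SE 0.23, adjusted p = 4.68e-13). The rise in TC71 was 7.95 (SE 0.27, adjusted p = 3.21e-14). The splicing factors ESRP1 and ESRP2 were at least 3.30-fold and 5.08-fold higher in EW8. In TC71 the protease inhibitor SPINT2 rose by 5.15 (adjusted p = 4.96e-06) and the membrane protease ST14 was at least 58.5-fold higher. Of 18 mesenchymal genes, all tested, 4 were called higher and 1 lower in EW8 (median 0.40), and 11 higher and 1 lower in TC71 (median 2.03, or 1.43 with floor genes at their bound), against those same shares of all genes. The list includes FN1, VIM and FAP, which the study itself followed in these samples, so its count is not independent evidence of a direction. TNC, tenascin C, rose by 6.42 in EW8 and 6.96 in TC71, FAP, a surface protease of fibroblasts, by 3.19 in EW8 and FN1, fibronectin, by 4.91 in TC71. In the other line, FAP went from 3.12 ± 0.973 to 24.9 ± 1.68 CPM (TC71) and FN1 from 788.5 ± 22.3 to 2321 ± 92.8 CPM (EW8). The groups overlapped in neither case. PDGFRB, a receptor of platelet-derived growth factor, fell by 1.08 in EW8 (adjusted p = 4.06e-06) and by 1.42 in TC71 (adjusted p = 1.20e-07). Among the 11 mesenchymal genes called higher in TC71, POSTN had 0 counts in each vehicle library and 10, 0 and 6 with doxycycline. Its groups overlapped, and the bound was at least 1.16-fold.

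**Figure D4:**
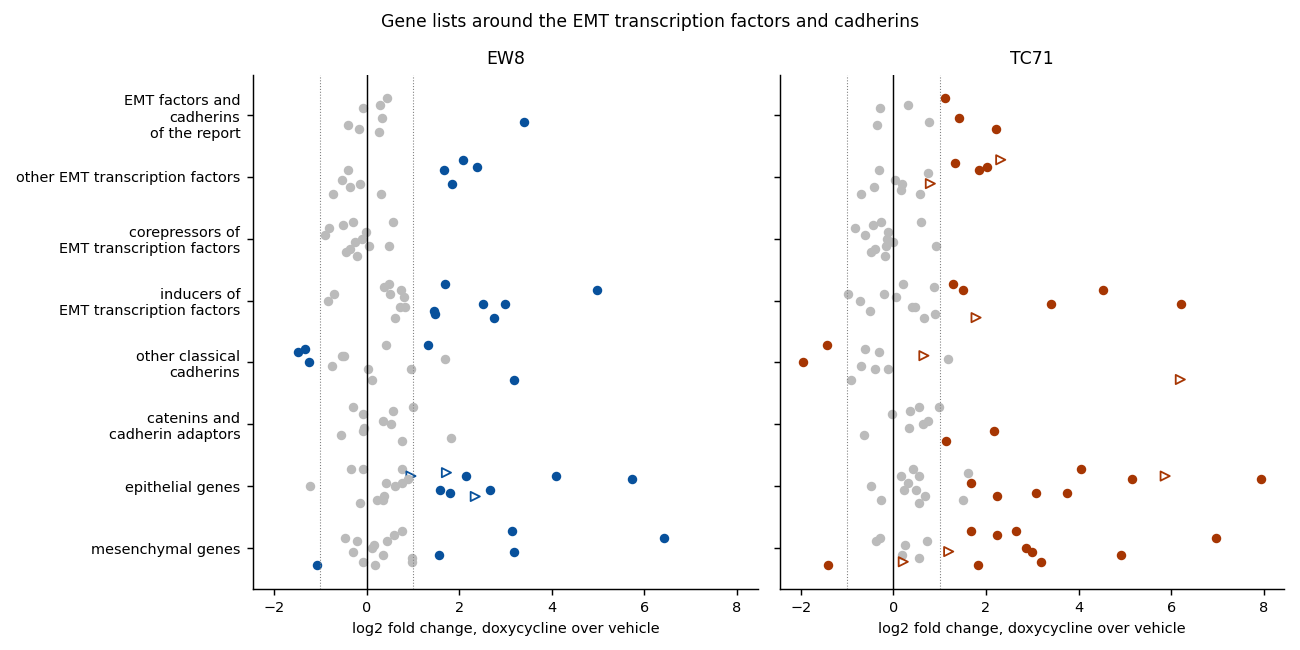
Log2 fold change of doxycycline over vehicle for tested genes of 8 lists in EW8 (left) and TC71 (right). Genes at the floor in both groups are left out, as are those whose bound did not exceed 1-fold. Filled colored points were called, grey points were not, open triangles are bounds for genes at the floor in 1 group, and dotted lines mark the fold limit. The corepressors lie inside the limit in both lines, and the called epithelial genes lie to the right in both.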

How the data were processed

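Polyadenylated RNA was made into TruSeq stranded libraries and sequenced as read pairs. The deposited values are raw counts per gene, not normalized: the authors checked reads with FastQC, aligned them with STAR to hg38 and counted them over GENCODE release 29 exons with featureCounts 2.0.1. Per the file headers, mates were counted singly and strand was not used, so a gene and an antisense partner cannot be told apart where they overlap. Totals ran from 42860665 to 60853649 counts a library. Symbols were matched for 58252 of 58721 gene identifiers (99.2%).

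Counts were fitted with edgeR 4.0.16 (R 4.3.3) after filterByExpr, which left 21013 genes holding 99.95% of counts, with TMM scaling, all 12 libraries and 4 groups in 1 quasi-likelihood fit, and Benjamini-Hochberg adjustment over the genes tested. CPM values use the TMM-scaled library size and levels per kilobase the deposited exon length. A group at or under 6 counts in each library was taken as at the floor, and folds against it are bounds that cover counting error only. The 95% intervals rest on log2 fold changes and their SE. Groups and replicates came from the sample titles. The study's own calls came from DESeq2, and version 1.42.0 of it was an alternative here, beside 2 other scalings, 2 other filters, halved counts, each line fitted alone, a replicate block and leaving out each library.

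The 10 genes and all lists were chosen, from general knowledge, with earlier results of these data known. Named genes are the 10, JUN, FOS, and in each list up to 2 called genes with the largest change per direction and line above the floor, plus bounds. Others, named where a count was small or a gene lay at a limit, were chosen after their values were seen. A gene that the rule names among the epithelial genes is not reported here. Correlations between genes are not given, since the 12 libraries form 4 clusters. Promoter windows are from RefSeq on GRCh38.p14. They were searched whole, and only stretches outside annotated untranslated regions, or 30 bases around an element, are printed.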

Additional observations from a re-analysis of the deposited data

Results flagged for a closer look

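The responses of 3 of the 10 genes differed between the lines by a test of the interaction (edgeR's quasi-likelihood test over 21013 genes, of which 4.18% were called higher and 2.87% lower for it). Those of FOS and JUN differed as well, as given above. SNAI2 responded less in TC71 than in EW8, by -2.64 on the log2 scale (SE 0.26, adjusted p = 5.81e-07), and all 3 doxycycline libraries were above all 3 vehicle libraries in either line. PRRX1 responded more in TC71, by 2.39 (SE 0.14, adjusted p = 8.51e-10), with the EW8 groups overlapping. ZEB1 responded more in TC71, by 1.08 (SE 0.19, adjusted p = 0.000363), with all doxycycline libraries above all vehicle libraries in either line.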

How the results depend on the processing

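The counts of called genes and the CDH11 shares of the cadherins, 42 values in all, were each taken under the alternatives that applied. For the shares this was no check. A share within a library cannot change with the scaling, and leaving out 1 of 3 libraries cannot move a mean by 1 SD. For the 10 genes, the counts called in EW8 (1 higher, 0 lower), in TC71 (3 and 0) and between the lines with vehicle (2 and 3) stayed within 1.5 times under all of them. Within that span, CDH1 joined the genes called lower with vehicle with no filter, with DESeq2 and without some single libraries. TWIST2 dropped out of them with at least 10 counts in every library. For the difference of the responses, the count called higher went from 2 to 1 with at least 10 counts in every library and with counts halved to read pairs, and lay between 1 and 2 when single libraries were left out, since ZEB1 came to between 0.87 and 1.23. The libraries whose loss ended that call were the 3 EW8 doxycycline libraries and TC71 vehicle replicates 1 and 3. Between the lines with doxycycline, the count called lower went from 1 to 2 with library size alone and with halved counts, and was between 1 and 3 without single libraries, as SNAI1 (-1.07 to -0.77) crossed the limit and CDH1, which passed the filter on low counts in some of these fits, was called in 4 of them. The count called higher was 1 without EW8 doxycycline replicate 3, where TWIST1 gave 0.96, and 2 otherwise. SNAI2 in EW8 ranged from 3.22 to 3.56, PRRX1 in TC71 from 2.12 to 2.27 and ZEB1 in TC71 from 1.24 to 1.56, and all 3 stayed called. Directions turned only for values that were not called. TWIST1 in EW8 was 0.04 without EW8 doxycycline replicate 3 and between -0.16 and 0.04 without single libraries. The difference of the ZEB2 responses was -0.02 with DESeq2 size factors, library size alone and DESeq2, -0.09 with at least 10 counts in every library, -0.08 with halved counts, and between -0.12 and 0.06 without single libraries. That of CDH11 was -0.05, -0.04 and between -0.10 and 0.12 with the 10-count filter, with halved counts and without single libraries. Median shifts of all genes over 0.1 arose for the difference of the responses, up to -0.123 without TC71 vehicle replicate 1, and for the lines with vehicle, by 0.107 without that same library.

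Among the lists, requiring at least 10 counts in every library, which drops the genes at the floor, lowered the EW8 counts called higher to 2 for other EMT factors, 1 for other cadherins and 4 for epithelial genes, and the TC71 counts to 2, 0 and 2. For catenins and adaptors called higher in EW8 (0), the count was 1 without a filter and with the 10-count filter, 2 with halved counts and with the line fitted alone, and 0 to 2 without single libraries (CTNNA1, CTNND2 or both were called). Other cadherins called higher in TC71 (2) came to 1 with halved counts and with the line fitted alone, and to 1 or 2 without single libraries. Inducers called lower in TC71 (0) came to 1 with DESeq2 size factors, library size alone, the 10-count filter, DESeq2 and halved counts, and to 0 or 1 without single libraries. Mesenchymal genes called lower in EW8 (1) came to 0 without EW8 doxycycline replicate 3. The cause was not tested where none is named.

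With the replicate block, the counts for the 10 genes were unchanged (1 and 0 in EW8, 3 and 0 in TC71, 2 and 1 for the difference), and the calls over all genes went from 2401 higher and 711 lower to 2327 and 641 in EW8 and from 2583 and 772 to 2507 and 713 in TC71. Libraries with the same number correlated by -0.072 to 0.076 in their deviations from the group means, and not every library correlated best with its own number. The labels do not say whether such libraries share a day or a culture, and these small correlations cannot settle it. Depth limits CDH1, CDH2 and TWIST2 in TC71, where 6 counts amount to between 0.0966 and 0.145 CPM.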
